A study of Rattus norvegicus with 14 samples.

Results

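The comparison described here set all 9 rats that had been given pilocarpine, whatever their diet, against the 5 rats that had not. Members were the 14 animals of the series, placed on a side by their labels, and the 155092 genomic regions (of 310070 in the table) whose sequenced tags summed to at least 129 over the 14 animals. All animals were male Wistar rats, an outbred stock. Control rats (CTRL, n = 5) were kept on a standard diet and injected with methyl scopolamine and saline alone. The rats of the other side received methyl scopolamine and then pilocarpine at 340 mg/kg. Those without a prolonged seizure after this dose were given a second, smaller one. After the prolonged seizure they received diazepam and then glucose, which CTRL rats did not. These rats were fed either a standard diet (PILO, n = 4) or a ketogenic diet (PILO + KD, n = 5), which is high in fat and low in carbohydrate. Dorsal hippocampus was taken after an observation period of 84 days (12 weeks), and each animal gave its own library without pooling. No animal received the ketogenic diet without pilocarpine, so the 5 PILO + KD animals carried both exposures.

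Pilocarpine is an agonist of muscarinic acetylcholine receptors that induces a prolonged seizure, status epilepticus, which is followed after a seizure-free interval by spontaneous recurrent seizures. Methyl scopolamine blocks its effects outside the brain. The model is used for temporal lobe epilepsy, in which the hippocampus loses neurons and gains reactive glia. Methylation of cytosine in CpG dinucleotides is a mark that is copied at cell division and differs between cell types, so that in DNA from whole tissue a change in the mixture of cells and a change of methylation within cells cannot be told apart. The question asked of the pooled comparison was which regions differed after pilocarpine in animals of both diets. Markers of hippocampal cell types were not analysed here.

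DNA methylation was measured by Methyl-Seq, which sequences the fraction of sheared DNA that binds a methyl-CpG binding protein, so that more tags in a region reflect more captured methylated DNA. The 5 CTRL libraries held 8411986 to 10559592 tags within regions (median 9584843), and the 9 libraries of the pilocarpine animals 6972700 to 12391666 (median 9216157). Values of single regions are given in CPM, the tags of a region relative to the library's tags in all tested regions. Libraries were scaled by the trimmed mean of M values (TMM), and 1 tag was worth between 0.0822 and 0.154 CPM. A region was called when its unadjusted p value in edgeR's quasi-likelihood test was below 0.01, the cut-off used by the study, and p values adjusted by Benjamini-Hochberg over all 155092 regions are given beside it. In a principal component analysis of log2 CPM, the first 3 components held 21%, 13.2% and 9.12% of the variance. PILO replicate 2 and PILO + KD replicate 1 lay apart from the other 12 libraries on the first component (scores of 133 and 174, against -93.8 to 73.2). Counts of calls without these 2 libraries are given for the share with more tags, adjusted p below 0.05, chromosome X and unplaced sequence. For other results, the values of single animals are given instead where they were examined.

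Over all tested regions, animals of a side were not detectably more alike than animals of different sides. The mean Pearson r between 2 animals, taken across regions, was 0.917 within CTRL (10 pairs, 0.902 to 0.930), 0.906 within the pilocarpine side (36 pairs, 0.883 to 0.933) and 0.908 between the sides (45 pairs, 0.877 to 0.939). The mean within sides exceeded the mean between sides by 0.00106, and 598 of the 2002 splits of 14 animals into 9 and 5 reached that excess (p = 0.299, exact permutation test, one-sided). Regions are not independent replicates, so only the animals were permuted. The share of each animal's tags that fell on each chromosome, on regions of each length class, in the most tag-dense 1% of tested regions or below the filter gave no p below 0.05 either. In these 29 comparisons the smallest p was 0.0669 and the smallest adjusted p was 0.804 (exact permutation tests, two-sided, where the smallest p that 2002 splits allow is 0.000999).

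At p below 0.01, 2117 of the 155092 regions were called, which was 1.36% of those tested. Of these, 1212 regions (0.781% of those tested) had more tags after pilocarpine and 905 (0.584%) had fewer. The called regions of higher signal had a median log2 fold change of 0.86 and those of lower signal of -0.68. Over all tested regions the median log2 fold change was 0.00679, with 51.4% of regions above 0. At p below 0.05 there were 8846 regions (5.7%). With adjustment over all regions, 3 regions (0.00193%) had an adjusted p below 0.05, 1 of them higher and 2 lower. The calls at p below 0.01 are therefore mostly regions that did not pass the correction.

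Regions with more tags made up 57.3% of the calls (95% exact binomial interval 55.1% to 59.4%, counting error only), but this majority rested on single libraries. Leaving out PILO replicate 3 gave 48.5%. Leaving out PILO + KD replicate 3 gave 49.0%, and PILO + KD replicate 4 gave 65.8%. Without both libraries that lay apart on the first component it was 48.6%. The 8 animals of the largest flow cell, as read from the prefix of the sample labels, gave 76.2%. The test of limma-voom on all animals gave 40.4%. The direction of the calls as a whole was thus not settled by these 14 libraries. The number of calls ran from 1477 to 2454 when each animal was left out in turn, where 1% of the tested regions is 1551. Without CTRL replicate 5 it was 1477 (0.952% of those tested) and without CTRL replicate 4 it was 1648 (1.06%). The excess over 1% was thus lost without CTRL replicate 5 and small without CTRL replicate 4, and no other animal left out brought the share below 1%. Leaving out a CTRL animal also shrinks the smaller side, and the effect of that on the count was not tested.

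**Figure D1:**
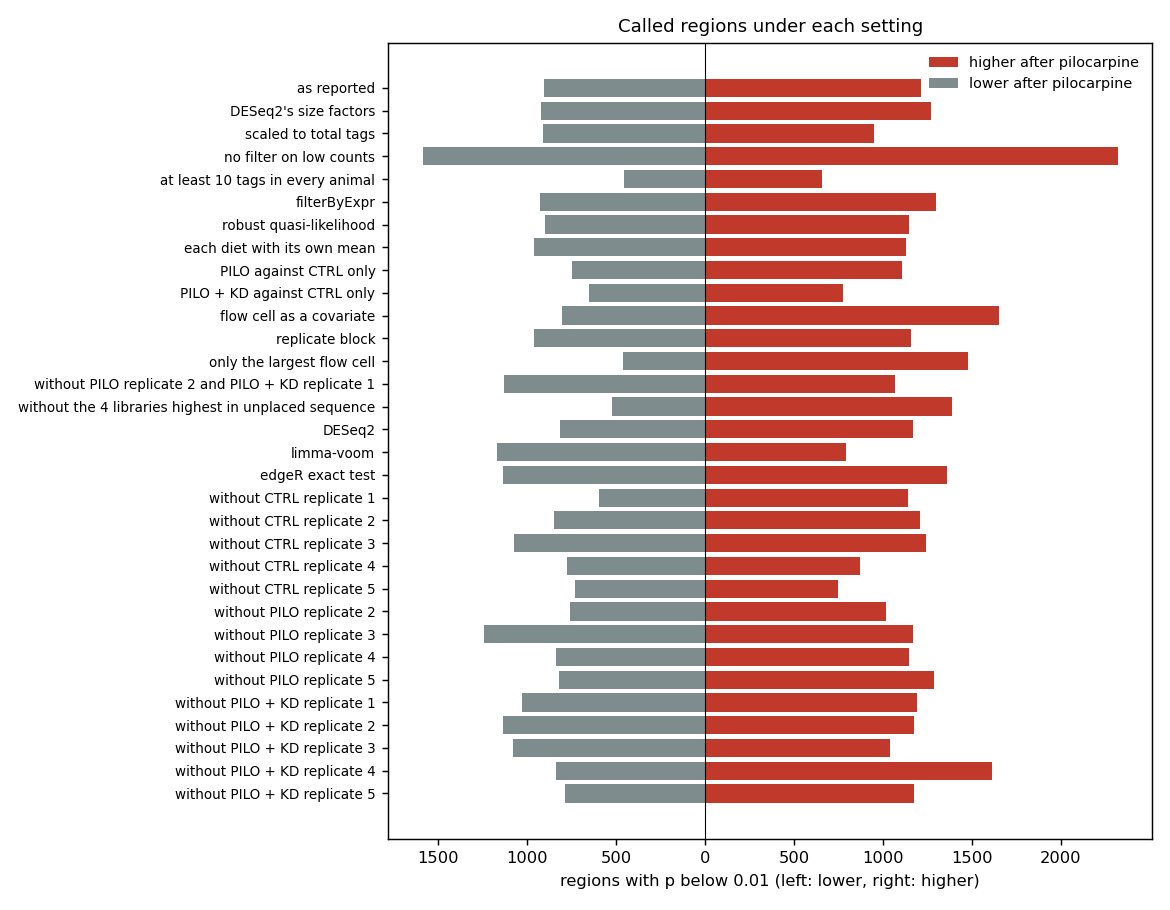
Number of regions with p below 0.01 under each setting, plotted to the right of 0 for regions with more tags after pilocarpine and to the left for regions with fewer. The top bar is the comparison as reported, with 1212 higher and 905 lower, and the balance of the 2 directions shifts between settings more than the total does, apart from the 2 settings that changed the filter most (3909 calls with no filter, and 1113 where every animal needed 10 tags or more).

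The called regions were next followed in single animals. A pilocarpine animal was counted at a called region when its CPM lay beyond all 5 CTRL animals in the direction of the fold change. These counts describe the calls and are no test, since the same animals made them. In 185 called regions (8.74%) all 9 pilocarpine animals lay beyond the CTRL range, 87 of them higher and 98 lower, and the values of the 2 sides did not overlap at 243 of all tested regions (0.157%). At least 7 of the 9 animals lay beyond it in 1201 called regions (56.7%). The median called region had 7 of 9 animals beyond the CTRL range, against 2 of 9 over all tested regions. At the other end, 10 called regions had no animal beyond it.

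Each of the 9 animals contributed to the calls. PILO replicate 2 was beyond the CTRL range at 84.6% of the called regions, the largest share, and PILO + KD replicate 4 at 61.2%, the smallest. The other 7 animals lay between 65.1% and 79.8%. At regions that were not called, the same shares were between 20.2% and 36.8%, and 4 libraries (PILO replicates 2 and 4, PILO + KD replicates 1 and 4) were above 30% there. PILO + KD replicate 4 was unlike the others at the regions called higher, where it lay beyond CTRL at 50.7% of regions against 64.1% to 87.7% in the other 8 animals. This animal was also the sole library with its label prefix, read here as its flow cell, so that the animal and the flow cell cannot be told apart.

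**Figure D2:**
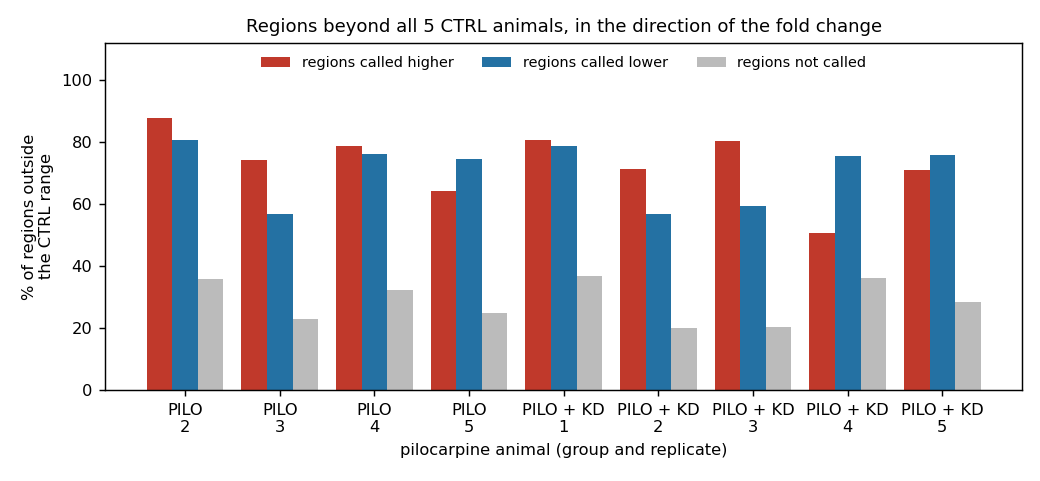
Share of regions, in percent, at which each pilocarpine animal lay beyond all 5 CTRL animals in the direction of the region's fold change, for regions called higher, called lower and not called. Every animal shows larger shares at called than at uncalled regions, and PILO + KD replicate 4 has the lowest bar for regions called higher (50.7%).

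The region with the smallest p value lost signal after pilocarpine. It lies on chromosome 4 (RN4, chr4:162809983-162810605, 623 bp). CTRL animals had 4.57, 3.69, 3.73, 4.05 and 3.60 CPM. PILO animals had 0.592, 0.740, 0.308 and 0.882 CPM, and PILO + KD animals had 0.719, 0.421, 0.565, 0.774 and 0.848 CPM. All 9 pilocarpine animals lay well below all 5 CTRL animals, and the 2 diets covered the same range. The mean was 3.93 ± 0.397 CPM (SD, n = 5) in CTRL and 0.650 ± 0.194 CPM (SD, n = 9) after pilocarpine, a log2 fold change of -2.55 (SE 0.24) with an adjusted p of 1.38e-06 by edgeR. These values came from 29 to 46 tags per CTRL animal and 2 to 9 tags per pilocarpine animal. Leaving out each animal in turn gave log2 fold changes of -2.61 to -2.48, and the adjusted p stayed at or below 3.37e-05. A region within 10 kb of it was called lower as well, with a log2 fold change of -1.25.

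A region on chromosome 12 (chr12:7708518-7709354, 837 bp) also had fewer tags after pilocarpine. CTRL animals had 5.76, 4.36, 7.73, 3.29 and 6.11 CPM. The pilocarpine animals ranged from 0.154 to 3.39 CPM with a median of 1.13. Of the pilocarpine animals, PILO + KD replicate 5 (3.39 CPM) alone reached the CTRL range, above the lowest CTRL animal. The log2 fold change was -2.04 (SE 0.34) with an adjusted p of 0.0458 by edgeR. The adjusted p was 0.281 by DESeq2 and 0.0382 with limma-voom. When each of the 14 animals was left out in turn, edgeR's adjusted p was no longer below 0.05 in 8 cases. It was highest, at 0.291, without CTRL replicate 5.

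The called region with the smallest p among those with more tags was on chromosome 10 (chr10:96179352-96180090, 739 bp). CTRL animals had 1.09, 0.559, 0.773, 0.633 and 2.07 CPM. PILO animals had 2.96, 2.38, 3.24 and 3.78 CPM, and PILO + KD animals had 5.75, 3.90, 3.61, 2.65 and 5.09 CPM. The 2 sides did not overlap, although CTRL replicate 5 came close to the lowest pilocarpine animal. The mean rose from 1.03 ± 0.619 CPM (SD, n = 5) to 3.71 ± 1.11 CPM (SD, n = 9), a log2 fold change of 1.81 (SE 0.29) with an adjusted p of 0.0426 by edgeR. The adjusted p was 0.32 with limma-voom and 0.000383 by DESeq2. By edgeR it was no longer below 0.05 for 8 of the 14 animals left out in turn and was highest, at 0.263, without CTRL replicate 4.

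Among the other 9 regions of the 10 with the smallest p and higher signal, the log2 fold change ran from 0.93 to 2.42 and no adjusted p was below 0.1. On chromosome 11 (chr11:10716539-10717152), CTRL animals had 0.253 to 1.12 CPM (median 0.644) and pilocarpine animals 0.617 to 6.85 CPM (median 3.60). PILO replicate 4 (0.617 CPM) and PILO + KD replicate 4 (0.885 CPM) stayed within the CTRL range there, and the other 7 animals were at 3.05 CPM or above. A second region of this chromosome (chr11:11301861-11302514) had 0.109 to 1.16 CPM in CTRL and 0.617 to 3.79 CPM after pilocarpine, with PILO replicates 2 and 4 inside the CTRL range.

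Chromosome 7 held 5 of the 10 higher regions. The most tag-rich of them (chr7:32692582-32694777, 2196 bp) had 4.77, 6.15, 3.99, 4.55 and 4.36 CPM in CTRL and 12.9, 11.8, 13.6 and 12.1 CPM in PILO. In PILO + KD it had 13.1, 6.42, 11.4, 3.87 and 8.69 CPM, so that PILO + KD replicate 4 lay below every CTRL animal while the 4 PILO animals were closely grouped. At 2 other chromosome 7 regions (chr7:31692010-31692828 and chr7:115767612-115768442) all 9 animals were above CTRL, with log2 fold changes of 1.80 (SE 0.37) and 1.65 (SE 0.35).

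The remaining higher regions included 2 on chromosome 5. At chr5:155404790-155405659 the CTRL animals were tightly grouped between 1.27 and 1.55 CPM and the pilocarpine animals ran from 2.06 to 6.36 CPM without overlap. At chr5:161750483-161751258 the CTRL animals had 0.253 to 0.559 CPM, PILO animals 2.16 to 3.21 CPM and PILO + KD animals 0.553 to 2.33 CPM. PILO + KD replicates 2 (0.632 CPM) and 4 (0.553 CPM) were near or within the CTRL range at this region.

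**Figure D3:**
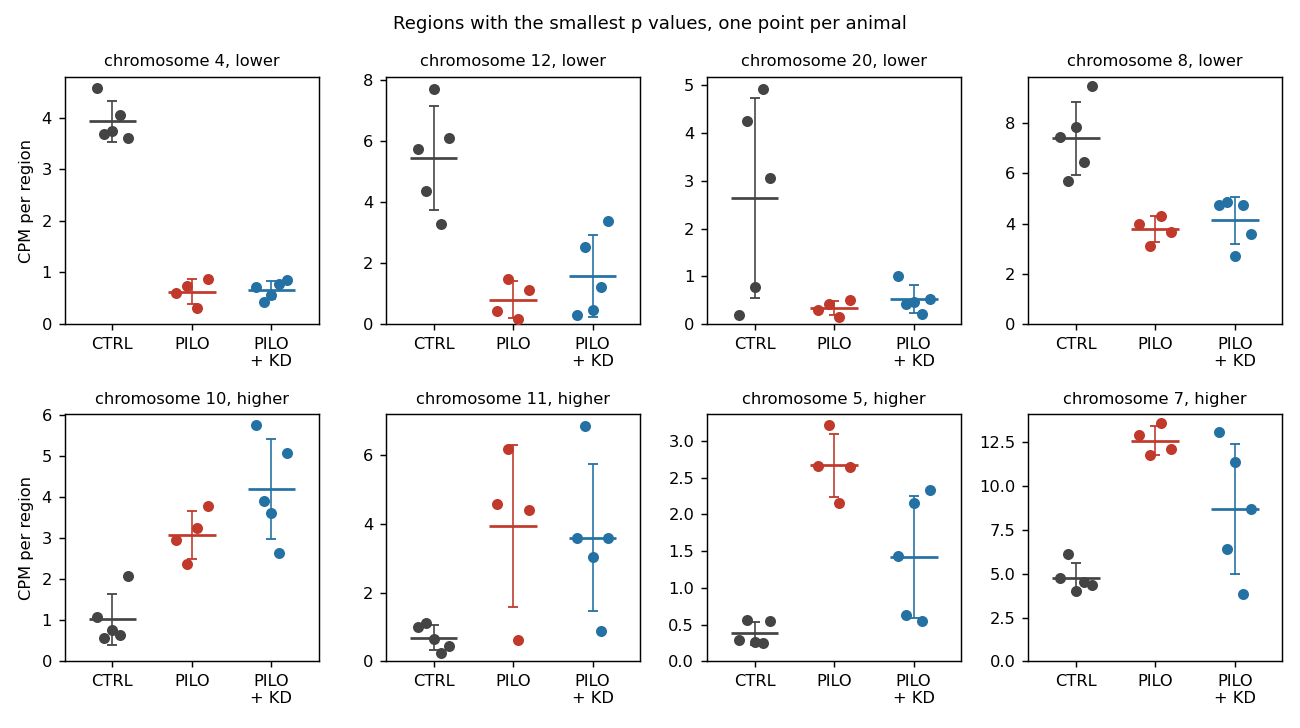
CPM in each animal (points) with the mean (horizontal line) and SD (bar) of CTRL, PILO and PILO + KD, for the 4 regions with fewer tags (top row) and the 4 with more tags (bottom row) after pilocarpine that had the smallest p values. The chromosome 4 region shows all 9 pilocarpine animals between 0.308 and 0.882 CPM against 3.60 to 4.57 CPM in CTRL, whereas the chromosome 20 region has 2 CTRL animals at the level of the pilocarpine animals.

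Of the other 8 regions with the smallest p and lower signal, 3 had no overlap of the sides. At chr8:42258978-42260323 the CTRL animals had 5.71 to 9.49 CPM and the pilocarpine animals 2.71 to 4.84 CPM, a log2 fold change of -0.90 (SE 0.16). At chr15:88131594-88132141 they had 2.83 to 3.97 CPM and 1.08 to 2.33 CPM, a log2 fold change of -1.02 (SE 0.22). The third of these regions was the Il10rb region described below. A chromosome 20 region (chr20:2746755-2747353) had rank 5 by p value over both directions, yet had CTRL values of 0.199, 4.25, 0.773, 4.93 and 3.05 CPM against 0.154 to 1.01 CPM after pilocarpine. Its log2 fold change of -2.53 (SE 0.46) thus came from 3 of the 5 CTRL animals, and with limma-voom its p was 0.0107.

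The 20 regions with the smallest p (10 per direction) lay on 10 chromosomes, and all 20 kept p below 0.01 when each animal was left out in turn, with flow cell as a covariate and by DESeq2. On the largest flow cell alone (3 CTRL and 5 pilocarpine animals) all 20 kept their direction and 19 kept p below 0.01. The exception was a second chromosome 12 region, chr12:7419360-7420167, with a p of 0.0197. The same animals had selected these regions, so these checks concern the influence of single libraries and flow cells and are not a replication. In 8 of the 20 regions, 4 in each direction, all 9 pilocarpine animals lay beyond CTRL. Genes at these positions were not analysed here.

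The study placed bisulfite sequencing amplicons at 2 genes, and the regions overlapping them were examined by name. By that assay it reported more methylation at Camkk2 and less at Il10rb in PILO than in CTRL. It also reported that the ketogenic diet reduced the change at Camkk2 and reversed that at Il10rb. Bisulfite sequencing reads single CpGs, here over stretches shorter than these regions, so the tag counts below are an unlike measure. Il10rb encodes a subunit of the interleukin-10 receptor, which passes on anti-inflammatory cytokine signals. Its region (chr11:31381090-31382012, 923 bp) had 6.56, 5.03, 7.47, 5.44 and 5.45 CPM in CTRL. It had 4.44, 3.62, 2.00 and 2.65 CPM in PILO and 2.59, 4.63, 3.05, 2.32 and 3.07 CPM in PILO + KD. All 9 pilocarpine animals were below all 5 CTRL animals, with the diets intermixed. The mean fell from 5.99 ± 1.00 (SD, n = 5) to 3.15 ± 0.913 CPM (SD, n = 9). The log2 fold change of -0.91 (SE 0.18) passed the cut-off and had an adjusted p of 0.343 by edgeR. An exact permutation test of this region alone gave p = 0.000999 (two-sided), the smallest that 9 against 5 animals allow. The study chose Il10rb on PILO and CTRL animals of this set, so the p values are not independent evidence, and the region is 1 of the 10 lower regions counted above.

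Camkk2 encodes a kinase that activates other kinases in response to calcium and calmodulin. Its region (chr12:34936037-34936702, 666 bp) had 0.894, 1.79, 1.03, 0.633 and 0.763 CPM in CTRL. It had 0.888, 2.38, 2.93 and 2.02 CPM in PILO and 1.87, 1.16, 2.15, 0.774 and 0.848 CPM in PILO + KD. The sides overlapped, with 5 of the 9 pilocarpine animals above CTRL, 3 of them from the 4 PILO animals. The log2 fold change of 0.69 (SE 0.35) did not pass the cut-off (edgeR's p = 0.0584, adjusted p = 0.884, exact permutation test p = 0.102, two-sided). For single diets the log2 fold change was 1.00 (SE 0.40) in PILO and 0.38 (SE 0.39) in PILO + KD, both measured against the same 5 CTRL animals, and the difference between the diets of -0.62 (SE 0.38) had a p of 0.116.

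Diet entered the pooled comparison as a check. When the 2 diets were given separate means, 1853 regions (1.19%) were called in PILO and 1427 (0.92%) in PILO + KD, each against the same CTRL animals. Of the 2117 regions called in the pooled comparison, 953 had p below 0.01 in PILO alone and 941 in PILO + KD alone. In 311 regions this held for both diets, and in 534 for neither, so that those 534 were called with all 9 animals on a side and not with 4 or 5. Regions called higher had a median log2 fold change of 0.88 in PILO and 0.81 in PILO + KD, and regions called lower of -0.69 and -0.66. The pooled call on these same 9 animals had selected the regions. Shifts of that sign in each diet follow from the selection and are no test of agreement between diets.

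The direct contrast of the 2 diets compares the means of PILO + KD and PILO, while its scaling and estimate of spread also draw on the CTRL animals. Over all tested regions it called 545 (0.351%), and no region had an adjusted p below 0.05 by edgeR, with the smallest at 0.307 and 3562 regions at an unadjusted p below 0.05. The same contrast was restricted to the largest flow cell (3 PILO and 2 PILO + KD animals, with 3 CTRL animals in the fit), a choice made after the data were seen. It called 862 regions there, and 11 had an adjusted p below 0.05. The calls with more tags in PILO + KD were 42.9% of the total with all animals and 62.6% on that flow cell, so neither the number nor the direction of diet differences was stable. Of the 2117 called regions, 23 (1.09%) differed between diets at p below 0.01. The change from PILO to PILO + KD ran against the direction of the pooled fold change in 13 and along it in 10. At p below 0.05 the share was 4.77%, against 2.3% of all tested regions. In 66 of these called regions the diet difference ran against the pooled fold change. Both contrasts share the estimate of spread of each region. The diet difference ran against the pooled fold change in 57.2% of the called regions and in 51.8% of all tested regions. Its median over the called regions was -0.05 (log2) in the direction of the call. These counts compare signs and not distances from CTRL. Among the 20 regions with the smallest p, chr5:161750483-161751258 and chr7:32692582-32694777 had less signal in PILO + KD at an unadjusted p below 0.05, with log2 differences between diets of -0.92 (SE 0.37) and -0.54 (SE 0.22). Both had an adjusted p of 1 by edgeR.

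Called regions were spread over all chromosomes. On the autosomes 2045 of 145002 regions were called (1.41%), from 1.08% on chromosome 13 to 2.17% on chromosome 12. Among them 56.0% had more tags after pilocarpine, with chromosome 10 at the upper end (86 of 127) and chromosomes 9 (53 of 119) and 4 (55 of 122) at the lower end.

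Chromosome X held 6 called regions of 4809 (0.125%), 3 in each direction. The count was between 5 and 21 under every alternative run, with 21 when PILO replicate 2 and PILO + KD replicate 1 were left out. Its regions were more tag-rich than those of the autosomes (median log2 CPM 2.71 against 1.79), and calls were fewest among tag-rich regions. When the tested regions were divided into 5 classes of equal size by abundance, the most abundant class had 130 calls (0.419%), whereas the other 4 classes had 1.28% to 1.82%. The share of calls with higher signal fell from 66.9% in the least abundant class to 43.9% in the next to most abundant and was 57.7% in the most abundant. The part of abundance in the low count on chromosome X was not tested.

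Calls on sequence not placed on a chromosome stood out by direction and not by number. Of its 5280 tested regions 65 were called (1.23%), of which 63 had more tags after pilocarpine and 2 had fewer. Higher regions made up 80.9% to 98.4% of the unplaced calls under every alternative run. The low end came without PILO replicate 2 and PILO + KD replicate 1, with 38 higher and 9 lower calls. The number of unplaced calls moved with single animals, to 35 without CTRL replicate 5 and to 98 higher and 4 lower without PILO replicate 3. Over all tested regions of unplaced sequence the log2 fold change had a median of 0.07, and 69.6% were above 0. That shift was not particular to unplaced sequence. The share above 0 was 67.8% in regions from 2 kb, where 35 of 45 calls were higher. It was 65.1% on chromosome X and 63.3% in the most abundant class, against 50.3% on the autosomes. The summed CPM of the 63 regions was 574, 371, 355, 462 and 329 in CTRL, 864, 521, 646 and 640 in PILO, and 781, 667, 597, 656 and 547 in PILO + KD. CTRL replicate 1 lay above PILO replicate 3 and PILO + KD replicate 5, and the other CTRL animals were below all 9. Unplaced sequence as a whole took 7.11 ± 0.492% of the tags in CTRL (SD, n = 5) and 7.54 ± 0.549% after pilocarpine (SD, n = 9). A difference between these means was not detected (exact permutation test, two-sided, p = 0.178, adjusted p = 0.804).

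The libraries with the largest share of tags on unplaced sequence were PILO + KD replicate 4 (8.26%), PILO replicate 4 (8.10%), PILO + KD replicate 5 (7.86%) and PILO replicate 2 (7.84%), against 6.49% to 7.71% in CTRL. Without these 4 libraries, a choice made after the data were seen, 1913 regions were called, 72.6% of them higher, and on unplaced sequence 34 of 36 calls were higher.

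**Figure D4:**
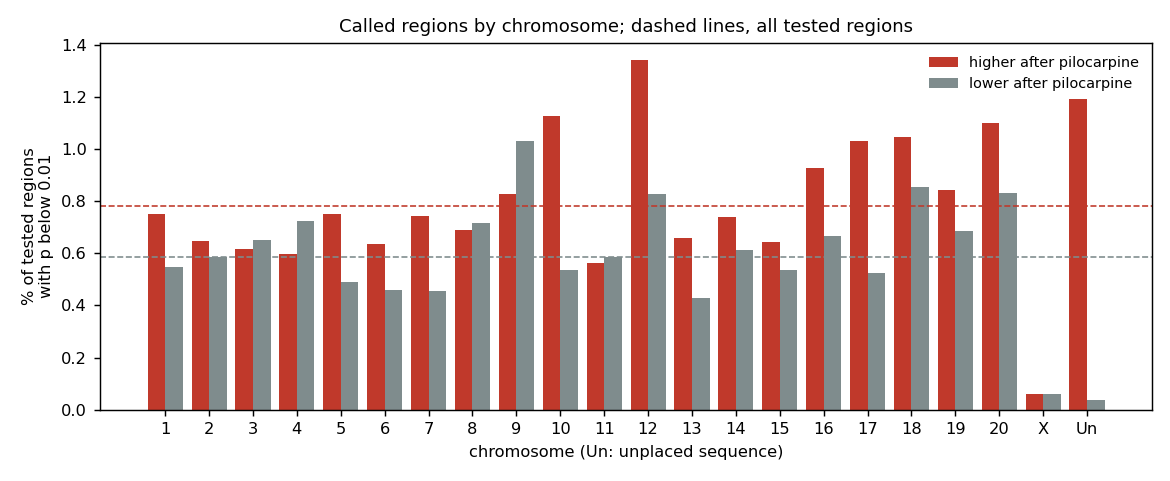
Share of the tested regions of each chromosome, in percent, that had p below 0.01 with more (red) or fewer (grey) tags after pilocarpine, with dashed lines at the shares over all tested regions (0.781% and 0.584%). Chromosome X has 6 calls, and unplaced sequence (Un) has 63 higher and 2 lower calls.

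The mitochondrial genome contributed a single tested region (positions 2 to 2382), which was called with more tags after pilocarpine. CTRL animals had 22.9, 34.8, 40.2, 11.3 and 23.8 CPM. The pilocarpine animals ranged from 21.6 to 133 CPM with a median of 39.3, and PILO replicate 2 (122 CPM) and PILO + KD replicate 2 (133 CPM) were far above the others. The log2 fold change was 1.08 (SE 0.33), with a p of 0.00282 and an adjusted p of 0.613 by edgeR, and 5 of the 9 pilocarpine animals were within the CTRL range. As a share of all tags the region took 0.00249 ± 0.00102% in CTRL (SD, n = 5) and 0.00518 ± 0.0038% after pilocarpine (SD, n = 9; exact permutation test, two-sided, p = 0.0669).

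Some called regions lay next to each other. Called regions of the same direction separated by at most 10 kb formed 74 clusters of at least 2, with 159 regions in all (7.51% of the calls). Of these clusters 54 had more tags and 20 fewer, and the 8 clusters with at least 3 regions all had more. The clusters with 5 and with 4 regions lay on chromosomes 16 and 17. Of the 6 clusters with 3 regions, those 3 with the smallest p values are described, on chromosomes 7, 7 and 3. Regions of a cluster lie close together and are not separate observations.

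The largest cluster (chr16:37866383-37903760) had 5 called regions of 5 tested over 37378 bp, with log2 fold changes of 0.46 to 0.83. Its summed CPM was 75.6, 84.2, 119, 84.4 and 77.8 in CTRL, 193, 79.7, 167 and 81.4 in PILO, and 228, 95.6, 117, 207 and 126 in PILO + KD. PILO replicates 2 and 4 and PILO + KD replicates 1 and 4 were high, PILO + KD replicate 5 was just above CTRL, and the other 4 pilocarpine animals were within the CTRL range. The 4 high animals are the same libraries that were beyond CTRL at over 30% of uncalled regions.

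The chromosome 17 cluster (chr17:72474615-72487266, 4 of 5 regions) was more even. Its summed CPM was 25.7, 23.7, 21.6, 23.5 and 24.1 in CTRL, a narrow range, and 30.2, 35.9, 36.8 and 38.6 in PILO. In PILO + KD it was 46.8, 23.6, 37.3, 46.4 and 45.7, so that PILO + KD replicate 2 was at the CTRL level and the other 8 pilocarpine animals were above it.

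The first chromosome 7 cluster (chr7:12955467-12960863, 3 of 3 regions) had 2.53 to 5.54 CPM in CTRL and 5.09 to 16.3 CPM after pilocarpine, where PILO + KD replicate 4 alone of the pilocarpine animals fell in the CTRL range. The second (chr7:11204199-11218620, 3 of 5 regions) had 10.7 to 16.1 CPM in CTRL and 14.7 to 27.5 CPM after pilocarpine, with PILO + KD replicates 4 and 5 in the CTRL range. The chromosome 3 cluster (chr3:146576244-146588064, 3 of 3 regions) had 12.1, 2.01, 0.258, 10.2 and 0.872 CPM in CTRL. There, the 4 PILO animals were between 19.4 and 47.7 CPM and above every CTRL animal, whereas PILO + KD had 1.80, 1.87, 10.6, 14 and 29.5 CPM in ascending order and straddled the CTRL range.

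**Figure D5:**
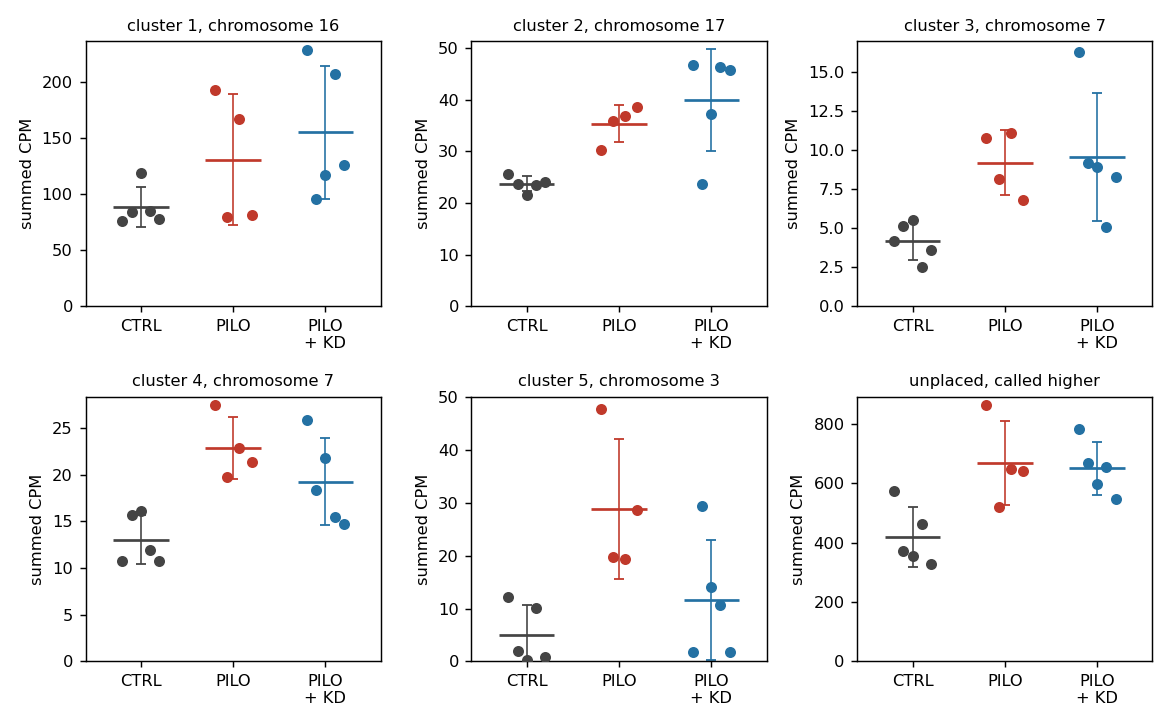
Summed CPM of the called regions in each animal (points), with the mean (horizontal line) and SD (bar) per group, for the clusters of 5 and 4 called regions, the 3 clusters of 3 called regions with the smallest p values, and the 63 unplaced regions called higher. The chromosome 16 cluster is split within the pilocarpine animals (4 animals at 167 to 228), while in the chromosome 17 cluster 8 of 9 pilocarpine animals lie above the CTRL range of 21.6 to 25.7.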

How the data were processed

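Methylated DNA from each of 14 animals was captured and sequenced in its own library. The authors checked reads with FastQC, aligned them to RN4 with BWA, compared every pair of samples with MACS 1.4.0 to find regions, merged these and deposited the tag counts of each animal per region (bedtools is also named in the submitters' processing notes). The deposited values are whole-number counts without normalization, and no column belonged to other samples (0 columns). A region enters the table when any pair of animals differs, also within a group. Groups came from the labels. Flow cell was read from the prefix of each label, which does not name it as such. PILO + KD replicate 5 has no number in the labels.

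Regions with summed counts below the 50th centile (129 tags) were removed, which kept 92.8% of tags. After TMM scaling the counts were tested in edgeR 4.0.16 (R 4.3.3) by quasi-likelihood F tests with a mean for CTRL and a mean for the 9 pilocarpine animals (common dispersion 0.0364, prior degrees of freedom 19.7). Adjusted p values are Benjamini-Hochberg over all tested regions. The SE was taken as log2 fold change / √F. Diets were contrasted in a fit with 3 group means. Log2 CPM used a prior count of 2. Coordinates are RN4, counted from 1. The study calls for a cut-off of p below 0.01 without naming which edgeR test was run.

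The animals, region lists and tests were chosen with earlier results of these data known. Named regions were the 10 with the smallest p per direction, every region with an adjusted p below 0.05, those at the study's Camkk2 and Il10rb amplicons, and 5 clusters taken by number of calls, with ties settled by the smallest p. The mitochondrial region, unplaced sequence and 1 Mb windows were named after their values were seen. No pair of libraries within a side was a second copy (46 pairs, chi-square per degree of freedom 1.63 to 5.1). The fit was tested on simulated counts. Alternatives were other scalings (DESeq2's size factors, total tags), filters, tests (DESeq2 1.42.0, limma-voom in limma 3.58.1, edgeR's exact test, robust quasi-likelihood), flow cell as a covariate, the largest flow cell alone, a replicate block, single diets and animals left out. Genes by RN4 position were not used here, and tag counting limits precision in regions of few tags.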

Additional observations from a re-analysis of the deposited data

Results flagged for a closer look

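Gaps between the animals of a side were examined in 60 groups of values (the named regions, the 5 clusters, the mitochondrial region and shares of tags), where chance alone marks about 1 group in 20, and 2 groups were marked. In the chromosome 20 region chr20:2746755-2747353, PILO + KD replicate 1 (1.01 CPM) stood above the other 8 pilocarpine animals, which had 0.154 to 0.530 CPM. In the chromosome 16 cluster (chr16:37866383-37903760), CTRL replicate 3 (119 summed CPM) stood above the other 4 CTRL animals at 75.6 to 84.4.

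A signal also appeared among regions removed by the filter on summed tags. When no filter was applied, chr14:97868432-97868873 (442 bp) had a log2 fold change of -3.03 (SE 0.46) with an adjusted p of 0.00286 by edgeR. It had 4 to 37 tags in CTRL animals (mean 2.01 CPM) and 0 to 4 tags in pilocarpine animals (mean 0.249 CPM), so that the lowest CTRL animal had as many tags as the highest pilocarpine animal.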

How the results depend on the processing

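The number of calls (2117) was 3909 with no filter and 1113 where every animal needed at least 10 tags, settings that tested more and fewer regions, and within 1.5 times of 2117 otherwise (1477 to 2454 with each animal left out). The share of calls with more tags (57.3%) fell below 50% without PILO replicate 2 and PILO + KD replicate 1 (48.6%, chosen after seeing the data), with limma-voom (40.4%) and at the low end of the leave-one-out range (48.5% to 65.8%). It was 51.0% with total-tag scaling, 59.4% with no filter, 54.1% with a mean per diet, 59.7% for PILO and 54.3% for PILO + KD against CTRL alone, 67.2% with flow cell as a covariate, 76.2% on the largest flow cell, 72.6% without the 4 libraries highest in unplaced sequence and 54.5% with edgeR's exact test. The cause was not tested. In place of 3 regions at an adjusted p below 0.05, there was 1 with total-tag scaling and there were 8 with no filter. With at least 10 tags there were 0 (edgeR, 4741 at an unadjusted p below 0.05). That filter removed all 3 regions, so they were not tested there. The count was 6 for PILO alone, 14 with flow cell as a covariate and 16 on the largest flow cell. It was 7 without PILO replicate 2 and PILO + KD replicate 1, and 8 without the 4 libraries. By DESeq2 it was 6, by the exact test 24, and 1 to 10 with each animal left out (10 without CTRL replicate 2). Same-numbered animals did not deviate together (8 pairs, r from -0.286 to 0.193), and the replicate block gave 2121 calls, 54.7% higher, 11 at an adjusted p below 0.05, and 471 calls with 0 at an adjusted p below 0.05 between diets (3145 at an unadjusted p below 0.05), against 862 calls with 11 at an adjusted p below 0.05 between diets on the largest flow cell.

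The excess of within-side over between-side correlation was -0.000558 on the largest flow cell and -0.00111 to 0.00254 with each animal left out, and its p was never below 0.05. Of 635 values of named regions under alternatives, 633 kept direction and side of the cut-off, and 2 lost p below 0.01 (chr12:7419360-7420167 on the largest flow cell and chr20:2746755-2747353 with limma-voom). Named regions that an alternative filter removed have no value under that filter and are not counted. No share of tags reached an adjusted p below 0.05 in any setting.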

Other observations

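Calls were also counted in windows of 1 Mb, chosen after their values were seen and therefore given without a test. Of 2807 windows with a tested region, 1113 held a call, and 8 windows with at least 10 calls held 105. The window with the most calls lay on chromosome 17 from 72 to 73 Mb, where 19 of 99 tested regions were called (19.2%, against 1.36% of all tested regions), 17 of them with more tags after pilocarpine. The summed CPM of these 17 regions was 137 to 153 in CTRL, 177, 222, 217 and 225 in PILO, and 272, 150, 219, 242 and 260 in PILO + KD. PILO + KD replicate 2 was at the level of CTRL and the other 8 animals were above it. Over all 99 regions of the window the sums were 464 to 510 in CTRL, with PILO replicate 2 (504) and PILO + KD replicate 2 (469) in that range and the other 7 pilocarpine animals at 576 to 649.

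On chromosome 20 from 4 to 5 Mb, 17 of 189 regions were called, 9 higher and 8 lower. The summed CPM of the 9 was 25 to 43.3 in CTRL and 41.9 to 63.6 after pilocarpine, and that of the 8 was 54.5 to 65.0 and 33.8 to 49.8. Calls of both directions thus stood side by side there, and the sums of all 189 regions overlapped (1210 to 1380 in CTRL and 1150 to 1410 after pilocarpine). On chromosome 14 from 49 to 50 Mb, all 12 called regions of 62 had more tags. Their sum was 39.6 to 65.2 CPM in CTRL, and 121, 88.8, 130 and 140 CPM in PILO replicates 2 and 4 and PILO + KD replicates 1 and 4, the animals that were high in the chromosome 16 cluster. PILO replicates 3 and 5 (45.2 and 50.0) and PILO + KD replicate 2 (62.9) were within the CTRL range there.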
